A study of Peromyscus californicus with 17 samples.

Results

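The receptors for 5 hormones were followed in the lung of *Peromyscus californicus*, the California mouse. They encode the receptors for oxytocin (*Oxtr*), vasopressin (*Avpr1a*), prolactin (*Prlr*), oestrogen (*Esr1*) and progesterone (*Pgr*). They were taken by symbol and are 5 of the 27786 genes measured, and all 5 had values in all 17 animals. RNA was sequenced from the whole lung of 17 males of stock IS, a genetically diverse colony, at 12 to 15 months of age by the study's methods, with 1 library per animal. Bonded males (B1 to B6) lived with a mate for 4 months until the lungs were taken. Bond-disrupted males (BD1 to BD6) were also paired for 4 months and were then taken out of the mating cage, 7 days before collection. Virgin males (V2 to V6) were of similar age and lived in groups of up to 3 to a cage, so that mating history and cage company cannot be told apart. Animals with the same number belonged to 1 of 6 families, and the virgins V3 and V4 were cousins of their namesakes, not siblings. In such bulk tissue, fewer cells of a type and less RNA per cell cannot be told apart.

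Oxytocin and vasopressin are related pituitary peptides that act on G protein-coupled receptors of one family, of which *Oxtr* and *Avpr1a* signal mainly through Gq, phospholipase C and calcium. In the brain of monogamous rodents, these receptors are known for their part in pair bonding, and in peripheral vessels *Avpr1a* mediates constriction. *Prlr* is a cytokine receptor that signals through Jak2 and Stat5, while *Esr1* and *Pgr* are nuclear receptors that bind steroid hormones and act as transcription factors.

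Before levels could be compared, a fault in the scale of the deposited values had to be removed. The values were given as FPKM, the fragments per kilobase of a gene and per 1000000 mapped fragments, but they were not divided by the gene's own length. In the first column each gene was divided by the length of the gene 1 row above it, and in each later column by that of a gene 1 row further up, as far as 17 rows above in the last. For *Avpr1a*, whose own length came out as 5398 bases, the divisor was 107 bases in B2 and 102 bases in BD2. Its deposited values of 102.7 FPKM in B2 and 210.6 FPKM in BD2 were 2.03 and 3.98 FPKM with its own length. Over the 17 animals, deposited *Avpr1a* values differed up to 280-fold and the corrected ones up to 4.39-fold. For *Esr1*, the same ratio of highest to lowest fell from 41.9 to 4.07, and for *Pgr* from 8.81 to 2.66. All levels below are corrected in this way and called own-length FPKM. The lengths came out as 5346 bases for *Oxtr*, 6806 for *Prlr*, 6708 for *Esr1* and 5467 for *Pgr*.

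**Figure D1:**
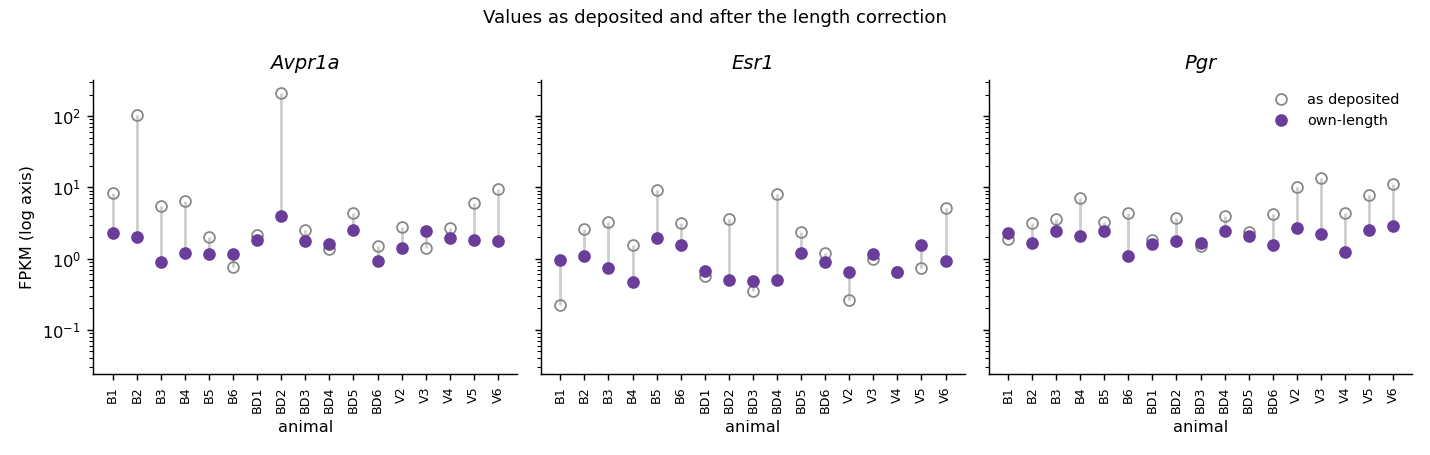
FPKM on a log axis for *Avpr1a*, *Esr1* and *Pgr* in each of the 17 animals, with open circles for the deposited value and filled circles for the value with the gene's own length. The open circles of *Avpr1a* in B2 and BD2 stand above 100 FPKM, while the filled circles of all 17 animals lie between 0.907 and 3.98.

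The depth of the libraries was recovered from the values and ranged, in units of 1000000 fragments, from 15.4 to 34.1 in B, 21.9 to 29.7 in BD and 19.0 to 22.4 in V. Markers of the lung were abundant in all 17 animals. *Sftpc*, the surfactant protein of type 2 alveolar cells, was at 12001 FPKM or more, and *Ager*, a marker of type 1 cells, at 1128 FPKM or more. The share of genes that lay at least 2-fold from their median over the animals was 2.30% to 6.72% per library, and was highest in BD6 (6.72%) and BD2 (6.61%).

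*Pgr*, *Avpr1a* and *Esr1* were detected in the lung of all 17 animals, whereas *Prlr* and *Oxtr* were at the limit of detection. Detection in an animal was set at 3 fragments, the upper limit that a count of 0 allows. *Pgr* averaged 2.04 ± 0.520 FPKM (SD, n = 17), *Avpr1a* 1.81 ± 0.744 and *Esr1* 0.939 ± 0.433. Among 25115 genes, these levels lay at percentiles 52.6, 51.6 and 46.2. *Prlr* averaged 0.0331 ± 0.0172 FPKM and *Oxtr* 0.0312 ± 0.0301, at percentiles 23.1 and 22.8.

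Within animals, the order of the upper 3 receptors was not fixed throughout. *Avpr1a* was above *Pgr* in 8 of 17 animals, so these neighbours did not separate. *Avpr1a* was above *Esr1* in 15 of 17 animals, with a mean log2 ratio of 0.90 ± 0.83 (SD). *Esr1* was above *Pgr* in 1 of 17 animals. All 3 were above *Prlr* and *Oxtr* in 17 of 17 animals. *Oxtr* was above *Prlr* in 7 of 17 animals, so these did not separate either.

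*Oxtr*, the oxytocin receptor, gave 63.5 fragments over the 17 libraries together, against 4220 for *Pgr*. It reached 3 fragments in 9 of 17 animals, namely 3 of 6 B, 4 of 6 BD and 2 of 5 V, and was listed at 0 in B5 and BD1. In B, its level was lowest at 0, with a median of 0.0231 and a highest value of 0.127 FPKM. The highest value belonged to B6, with 15.5 fragments, and no other animal had more than 7. In BD, it ran from 0 through a median of 0.0264 to 0.0574 FPKM. The virgins V2 to V5 had 0.0170, 0.0417, 0.0181 and 0.0197 FPKM, and V6, with 6 fragments, lay above them. The 3 groups overlapped, and at these depths 3 fragments of *Oxtr* correspond to 0.0164 to 0.0365 FPKM. In 1 animal, B6, the *Oxtr* fragments did not come out as a whole number. The same held for *Esr1* in 2 of 17 animals and for *Pgr* in 8 of 17.

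*Avpr1a*, the V1a vasopressin receptor, had 101 to 473 fragments per animal. In B, its level was lowest at 0.907 in B3, had a median of 1.19 and was highest at 2.26 FPKM in B1. In BD, it was lowest at 0.926 in BD6, with a median of 1.80 and a highest value of 3.98 FPKM in BD2. The virgins had 1.39, 2.44, 1.97, 1.82 and 1.76 FPKM. The groups overlapped over most of their range, and BD2 stood above the next highest animal, BD5 at 2.50 FPKM.

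*Prlr*, the prolactin receptor, gave 84 fragments in all and reached 3 fragments in 14 of 17 animals. These were 6 of 6 B, 3 of 6 BD and 5 of 5 V. Its level in B ran from 0.0255 through a median of 0.0302 to 0.0451 FPKM. In BD, it ran from 0.00621 through 0.0159 to 0.0544 FPKM, and the 3 animals under 3 fragments were BD2, BD5 and BD6. The virgins had 0.0536, 0.0262, 0.0568, 0.0619 and 0.0262 FPKM. The highest BD value lay above 3 of the 5 virgins, so the groups overlapped.

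*Esr1*, which encodes oestrogen receptor alpha, had 49 to 240 fragments per animal. In B, its level was lowest at 0.475 in B4, with a median of 1.02 and a highest value of 1.93 FPKM in B5. In BD, the lowest was 0.483 in BD3, the median 0.590 and the highest 1.21 FPKM in BD5. The virgins had 0.649, 1.15, 0.648, 1.56 and 0.936 FPKM. A level of 1 FPKM was reached by 3 of 6 B, 1 of 6 BD and 2 of 5 V, and the 3 groups overlapped.

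*Pgr*, the nuclear progesterone receptor, had 135.5 to 455 fragments per animal and reached 1 FPKM in 17 of 17. In B, it was lowest at 1.09 in B6, with a median of 2.18 and a highest value of 2.44 FPKM in B3. In BD, it ran from 1.56 in BD6 through a median of 1.71 to 2.48 FPKM in BD4. The virgins had 2.72, 2.19, 1.24, 2.52 and 2.89 FPKM. The lowest virgin, V4, lay under all 6 BD animals, and the groups overlapped.

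**Figure D2:**
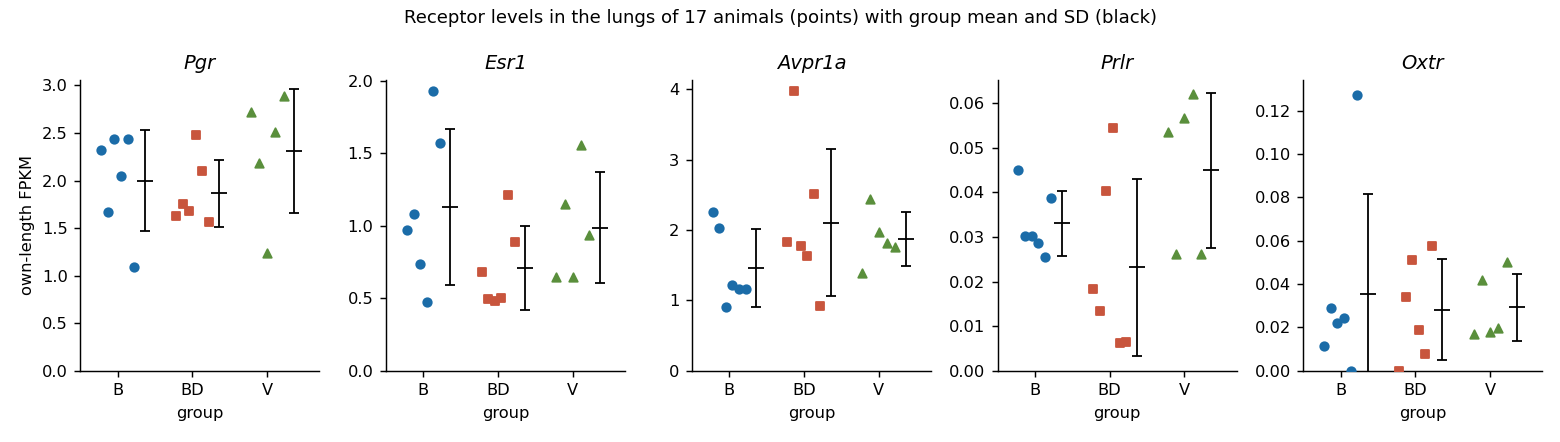
Own-length FPKM of the 5 receptors on linear axes, with 1 point per animal (circles B, squares BD, triangles V) and the group mean with its SD in black (n = 6, 6 and 5). The *Oxtr* point at 0.127 FPKM is B6 and the *Avpr1a* point at 3.98 FPKM is BD2, the axes of *Prlr* and *Oxtr* end far below those of the other receptors, and the SD bar of *Oxtr* in B is cut off at 0.

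Other receptors for the same or related hormones placed these levels in context. *Esr2*, the second nuclear oestrogen receptor, was at 0.621 FPKM on average over the 17 animals and *Gper1*, the membrane receptor for oestrogen, at 4.63 FPKM. *Avpr2* and *Avpr1b*, the other vasopressin receptors, were at 0.962 and 0.364 FPKM, and *Avpr1b* reached 3 fragments in 14 of 17 animals. *Nr3c1*, the glucocorticoid receptor, was at 25.7 FPKM and *Pgrmc1*, a membrane-bound progesterone receptor component, at 201 FPKM. *Ghr*, the growth hormone receptor of the same family as *Prlr*, was at 14.2 FPKM. Transcripts of the peptide hormones themselves were scarce. *Oxt* averaged 1.76 fragments per animal and reached 3 fragments in 4 of 17, and *Avp* averaged 3.47 and reached 3 fragments in 10 of 17.

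**Figure D3:**
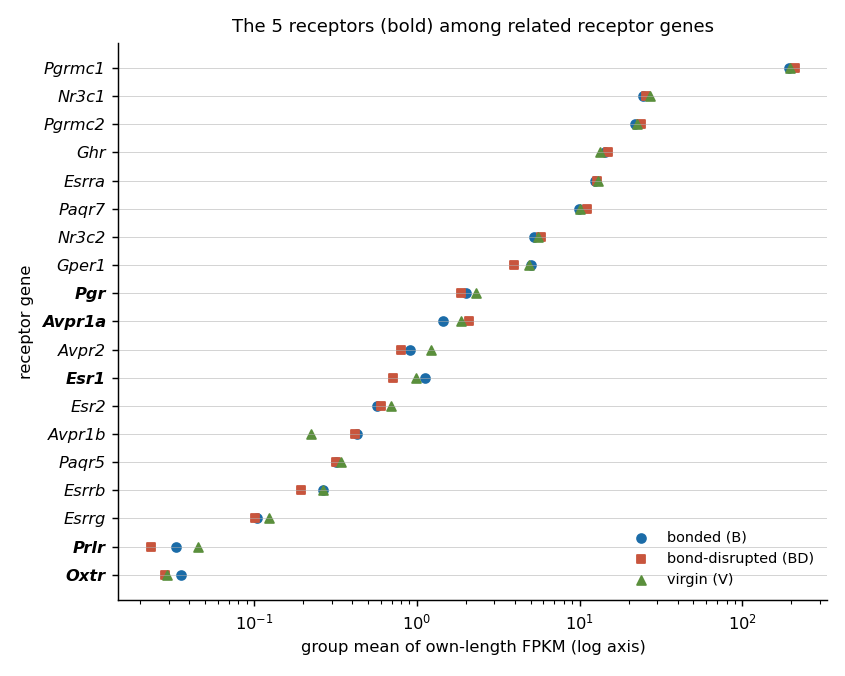
Group means of own-length FPKM on a log axis for the 5 receptors (bold) and 14 related receptor genes, with circles for B, squares for BD and triangles for V. *Prlr* and *Oxtr* have the lowest means of these genes, and *Pgrmc1* the highest, at 194 to 211 FPKM.

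The first comparison asked whether the receptors differed 1 week after the loss of the mate, in BD against B. None of the 5 passed the test in limma, at an adjusted p under 0.1 and at least 2-fold, against 0% of the 16185 genes tested with a mean of at least 10 fragments. *Oxtr* and *Prlr* were under that filter, and their values come from the same fit without it, in which 0% of 22610 genes passed. Without adjustment, 0 of the 5 receptors had a p under 0.05, against 6.21% of the filtered genes (1005) and 5.88% of those without the filter. This fit leaves out that each B animal had a sibling in BD. With the family number as a block, 1 of the 5 receptors (*Esr1*, unadjusted p = 0.0125, adjusted p = 0.755 in limma) had a p under 0.05, against 6.12% of the filtered genes and 5.96% of those without the filter. Limma's voom on fragments, an alternative, called 0 genes with the filter and 1 without it. Differences are given on the log2(FPKM + 0.1) scale, which understates those of genes near or under 0.1 FPKM. *Esr1* was at 1.13 ± 0.538 FPKM in B and 0.710 ± 0.292 in BD (SD, n = 6 each), a difference of −0.55 (SE 0.31, 95% interval −1.19 to 0.10, unadjusted p = 0.0909, adjusted p = 0.836). *Avpr1a* was at 1.46 ± 0.550 FPKM in B and 2.11 ± 1.05 in BD, a difference of 0.44 (SE 0.28, interval −0.15 to 1.04, adjusted p = 0.852). The *Avpr1a* difference rested in part on BD2 and was 0.24 without that animal. *Pgr* differed by −0.07 (interval −0.53 to 0.39, adjusted p = 0.979), with 2.00 ± 0.534 FPKM in B and 1.86 ± 0.354 in BD. The *Pgr* difference ran from −0.22 without B6 to −0.0030 without B3.

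In the fit without families, the intervals of *Esr1* and *Avpr1a* reached past a 2-fold difference and that of *Pgr* stayed within it. In the fit that blocks on families, *Esr1* had an interval of −0.96 to −0.14, within 2-fold, and *Avpr1a* one of −0.16 to 1.05. For *Oxtr*, BD minus B was −0.05 (interval −0.41 to 0.32, adjusted p = 0.984), and it ran from −0.12 without B5 to 0.11 without B6. For *Prlr*, it was −0.12 (interval −0.34 to 0.09, adjusted p = 0.884), and −0.19 without BD4. With voom on fragments, which does not add the 0.1 FPKM, these values were −0.80 (interval −1.70 to 0.10) for *Prlr* and −0.21 (interval −1.71 to 1.29) for *Oxtr*. They rest on 24 to 28 fragments per group for *Prlr* and 21 to 25.5 for *Oxtr*.

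Virgin against bonded animals separated males that had never paired from those living with a mate. None of the 5 receptors passed, against 0.00618% of the filtered genes and 0.00442% without the filter. Without adjustment, 0 of 5 had a p under 0.05, against 3.96% and 4.14% of genes. *Avpr1a* was at 1.88 ± 0.382 FPKM in V (SD, n = 5), which gave a difference of 0.39 (SE 0.30, interval −0.23 to 1.01, adjusted p = 1.00). *Pgr* was at 2.31 ± 0.655 FPKM in V, a difference of 0.19 (interval −0.29 to 0.67, adjusted p = 1.00), which was 0.037 without B6 and 0.39 without V4. *Esr1* was at 0.988 ± 0.381 FPKM in V, a difference of −0.12 (interval −0.80 to 0.56, adjusted p = 1.00), which ran from −0.32 without B4 to 0.048 without B5. The *Avpr1a* interval again reached past 2-fold. *Oxtr* differed by −0.02 (interval −0.40 to 0.36) and *Prlr* by 0.12 (interval −0.11 to 0.34), both with an adjusted p of 1.00. A positive value was found for *Oxtr* when voom on fragments was used (0.26, interval −1.31 to 1.83) and when B6 was left out (0.14). *Prlr* differed by 0.33 with voom (interval −0.61 to 1.27) and by 0.075 without V5.

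Virgin against bond-disrupted animals compared the 2 groups without a mate at collection. Again, none of the 5 passed, against 0% of genes with and without the filter. *Esr1* differed by 0.43 (SE 0.32, interval −0.25 to 1.10, adjusted p = 0.958) and *Pgr* by 0.26 (SE 0.23, interval −0.22 to 0.74, adjusted p = 0.958). The *Esr1* difference was 0.26 without V5, and that of *Pgr* was 0.17 without V6 and 0.46 without V4. *Avpr1a* differed by −0.05 (interval −0.68 to 0.57, adjusted p = 0.993), and ran from −0.25 without BD6 to 0.15 without BD2. *Prlr* was at 0.0232 ± 0.0198 FPKM in BD and 0.0449 ± 0.0174 in V. Its difference of 0.24 (interval 0.01 to 0.47) had an adjusted p of 0.958. Its unadjusted p was 0.0386, the only one of the 5 receptors under 0.05, where 4.4% of genes without the filter and 4.66% with it had such a p. With voom it was 1.13 (interval 0.19 to 2.07, adjusted p = 0.972). It rested on 24 fragments in BD and 32 in V. *Oxtr* differed by 0.02 (interval −0.36 to 0.40, adjusted p = 1.00), and by 0.47 with voom (interval −1.10 to 2.04). Its sign turned when BD1, BD5, V3 or V6 was left out (lowest −0.044, without BD1) and with the family block (−0.033). Since BD and V were both compared with the same B animals, these 3 sets of differences are not independent.

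**Figure D4:**
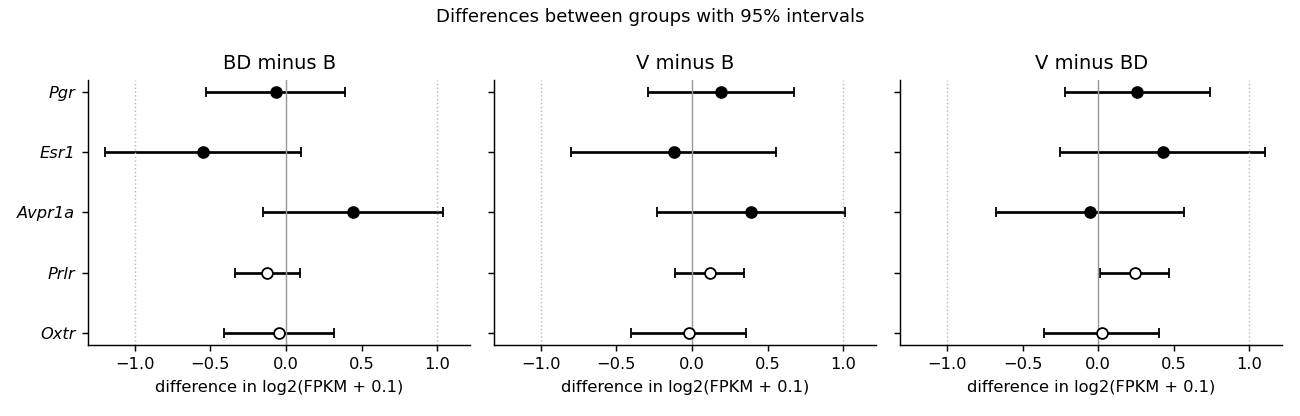
Difference between groups in log2(own-length FPKM + 0.1) for each receptor, with 95% intervals from limma, filled points from the fit with the filter on low counts and open points from the fit without it. Dotted lines mark a 2-fold difference on this scale, and 14 of the 15 intervals cross 0, with *Prlr* in V minus BD (0.01 to 0.47) as the exception.

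*Avpr1a*, *Esr1* and *Pgr* varied more between animals of a group than most genes with a mean of at least 100 fragments. The SD within groups, in log2 units, was 0.51 for *Avpr1a*, 0.55 for *Esr1* and 0.39 for *Pgr*. The median of 12501 genes with a mean of at least 100 fragments was 0.21, and 89.6%, 91.4% and 81.6% of them had a smaller SD than the respective receptor. Those genes were not matched to the receptors in level. The 3 receptors averaged 136 to 248 fragments, near the lower bound of 100, and the part of their low level was not tested. In depth-scaled fragments, the variance within groups was 35.7 times the mean for *Avpr1a*, 27.7 times for *Esr1* and 15.9 times for *Pgr*, where counting error alone gives about 1. For *Prlr* it was 1.12 times the mean. For *Oxtr* it was 3.87 times the mean, with B6 included. The means were 216 depth-scaled fragments for *Avpr1a*, 139 for *Esr1* and 247 for *Pgr*, against 4.97 for *Prlr* and 3.68 for *Oxtr*. This ratio is lower at few fragments for the same variation between animals. It therefore does not show that *Prlr* or *Oxtr* varied less.

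No correlation between the 5 receptors was found across animals. Of their 10 pairs, 0 had a correlation that passed a permutation test at an adjusted p under 0.05, over 17 animals. The strongest was between *Oxtr* and *Pgr* (Pearson r = −0.48, p = 0.0512, adjusted p = 0.512, Spearman rho = −0.28, p = 0.280). It rested on the 2 animals with *Oxtr* farthest from its median, since r was 0.01 without them. *Avpr1a* and *Esr1* had r = −0.14 (p = 0.594), and *Esr1* and *Pgr* r = 0.04 (p = 0.863). *Oxtr* and *Prlr* averaged 3.74 and 4.94 fragments per animal, so pairs with either of them could show little. With 17 animals, a correlation that was not strong could also have been missed.

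Markers of the cell types of the lung and of neighbouring tissues were compared with the receptors as the mean log2 level of each of 15 lists. Of the 75 pairs of a receptor and a list, 0 passed the permutation test at an adjusted p under 0.05. The lowest p belonged to *Oxtr* with type 1 alveolar markers (r = −0.71, p = 0.00163, adjusted p = 0.122, rho = −0.67), and r was −0.53 without the 2 animals farthest from the median. When deviations from the group means were used, *Oxtr* with type 1 alveolar markers (r = −0.72, adjusted p = 0.0461) and *Avpr1a* with cartilage markers (r = −0.71, adjusted p = 0.0461) passed in a permutation test. Both passed narrowly, and these tests took no account of families. *Oxtr* had 63.5 fragments in all, and the 4 cartilage markers summed to 0.957 to 1.58 FPKM in every animal but 1 of the BD group, at 15.1. Without group means taken off, *Avpr1a* with cartilage markers had r = −0.60 (permutation p = 0.0143, adjusted p = 0.214, rho = −0.60), and r = −0.76 without the 2 farthest animals. *Pgr* had r = 0.61 with endothelial markers (permutation p = 0.00905, adjusted p = 0.214, rho = 0.58) and r = 0.63 without the 2 farthest animals. The summed level of the 5 endothelial markers was 607 to 762 FPKM in B, 480 to 801 in BD and 624 to 876 in V. Their part in the levels of *Pgr* was not tested. For *Avpr1a* and macrophage markers r was −0.59 (permutation p = 0.0133, adjusted p = 0.214), and −0.23 without the 2 farthest animals.

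The genes whose pattern over the 17 animals was most like that of a receptor were named for the 3 receptors with enough fragments, from 12500 genes with a mean of at least 100 fragments. For *Avpr1a* these were *Mxd4* (r = 0.88), *Ifit2* (0.81) and *Sesn1* (0.81), and each of them, like *Avpr1a*, was highest in BD2. Without the 2 animals with *Avpr1a* farthest from its median, r was 0.83, 0.71 and 0.62. For *Pgr* they were *Nrp1*, which encodes a co-receptor for vascular endothelial growth factor (r = 0.88), *Eogt* (0.88) and *Epb41l2* (0.88), with r of 0.81, 0.76 and 0.80 without the 2 farthest animals. For *Esr1* they were *Six5* (r = 0.77), *Pheta1* (0.77) and *LOC128108813* (0.75), with r of 0.75, 0.66 and 0.87 without the 2 farthest animals. As these genes were picked as the highest of many, no test is given.

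The families allowed siblings in different groups to be compared. Across the 6 families with a B and a BD sibling, *Esr1* had r = 0.85 (one-sided exact permutation p = 0.0139 over 720 pairings). *Esr1* was highest in family 5 in both groups, at 1.93 FPKM in B5 and 1.21 in BD5, followed by family 6 at 1.57 and 0.889. The bonded sibling had the higher value in 5 of 6 families, and in family 4 the values were 0.475 in B4 and 0.502 in BD4. Spearman's rho was 0.71 (exact p = 0.0681), r was 0.81 without the 2 pairs farthest from the median, and leaving out each family gave r of 0.74 to 0.94. Of the 5 receptors, 2 (*Esr1* and *Oxtr*) had an exact p under 0.05 over the 6 families, 1 had without family 5 and 0 had without family 6.

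Such resemblance was not limited to the receptors. Of 16182 genes, 8.05% had a one-sided exact p under 0.05, 2.96% had a higher r than *Esr1*, and 0 passed adjustment over all genes, where *Esr1* had an adjusted p of 0.519. *Oxtr* had r = 0.73 (exact p = 0.0181, rho = 0.77 with exact p = 0.0514), on 0 to 15.5 fragments per animal and with an adjusted p of 0.590 over all genes without a filter. For *Avpr1a* r was 0.46 (exact p = 0.176), and 0.11 without family 2. *Pgr* had r = 0.37 (exact p = 0.254), and −0.06 without family 6. *Prlr* had r = −0.23 (exact p = 0.636).

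**Figure D5:**
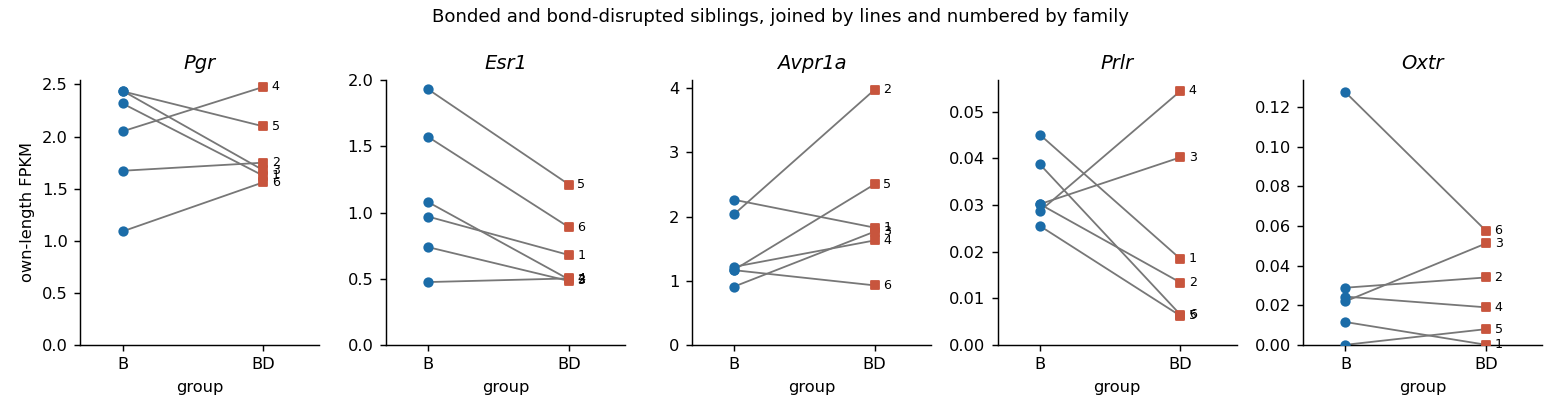
Own-length FPKM of each receptor in 6 pairs of siblings, B as circles and BD as squares, joined by a line and numbered by family at the right. For *Esr1*, 5 of the 6 lines fall from B to BD and families 5 and 6 are highest on both sides, whereas the lines of *Prlr* cross.

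Genes that make, carry or pass on the signals of these receptors were counted in 7 lists. In each list and each comparison, 0 genes passed the test, and the median log2 difference of a list lay between −0.10 and 0.07, against medians of −0.00042, 0.0066 and 0.012 over all genes in BD minus B, V minus B and V minus BD. Among all 16185 genes, 11.7% had an unadjusted p under 0.05 in at least 1 of the 3 comparisons, and the counts below are to be read against that share. Of 14 related receptors tested, 1 had such a p, *Avpr2*, the kidney-type vasopressin receptor, in V minus BD (0.56, unadjusted p = 0.0375, adjusted p = 0.958). *Avpr1b* had the lowest p of this list in V minus B (−1.17, unadjusted p = 0.0854 in limma). Of 5 genes for hormones and their handling, none had an unadjusted p under 0.05 in any comparison. *Lnpep*, the aminopeptidase that cleaves oxytocin and vasopressin, differed by 0.01 in BD minus B at 5.69 FPKM on average. *Cd38*, which is needed for oxytocin release in the brain, differed by −0.16 at 9.75 FPKM.

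Downstream of the peptide receptors, 0 of 17 genes of Gq and calcium signalling had an unadjusted p under 0.05 in any comparison, against 11.7% of all genes. *Rgs5*, a regulator of G protein signalling known from pericytes, came nearest in V minus B (−0.90, unadjusted p = 0.0564, adjusted p = 1.00), and *Mylk*, the myosin light chain kinase of smooth muscle, differed by −0.23 in BD minus B (unadjusted p = 0.0989, adjusted p = 0.837). Of 13 genes of prolactin and cytokine receptor signalling, 1 had a p under 0.05 in any comparison, against 11.7% of all genes. This was *Irs1*, an insulin receptor substrate, with −0.36 in V minus B (unadjusted p = 0.0260, adjusted p = 1.00) and −0.44 in V minus BD (unadjusted p = 0.00801, adjusted p = 0.958). *Irs1* averaged 1.46 FPKM in B, 1.56 in BD and 1.11 in V. *Jak2*, the kinase bound to *Prlr*, averaged 15.8 FPKM in B and in V and 16.5 in BD, and *Stat5a* and *Stat5b* were not analysed here.

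On the steroid side, 18 coregulators and chaperones of nuclear receptors, 13 known targets of oestrogen or progesterone and 12 steroid enzymes were tested, of which 1, 1 and 0 had an unadjusted p under 0.05 in any comparison, against 11.7% of all genes. *Ncoa2*, a coactivator of steroid receptors, was the coregulator with such a p, at 0.23 in V minus B (unadjusted p = 0.0421, adjusted p = 1.00). *Hsp90ab1*, a chaperone that holds unliganded steroid receptors, was at 428 FPKM and differed by −0.00081 (SE 0.083) in BD minus B. Among the targets, *Ccnd1*, the cell cycle gene cyclin D1, was the one with such a p, at 0.49 in V minus BD (unadjusted p = 0.00813, adjusted p = 0.958). It averaged 57.0 FPKM in B, 50.4 in BD and 70.6 in V. Of the enzymes, *Hsd11b1*, which regenerates active glucocorticoid, was the highest at 103 FPKM, followed by *Srd5a3* at 56.8 FPKM. The remaining genes that were the most abundant of a list or had its lowest p in a comparison were *Rgs2*, *Grb2*, *Stat3*, *Hsp90aa1*, *Ncor1*, *Ctsd*, *Xbp1*, *Rara*, *Igf1*, *Shbg*, *Nr3c2*, *Hsd17b4* and *Hsd17b8*. Their differences in these comparisons lay between −0.97 and 0.75, both for *Shbg*, and their adjusted p in limma was 0.840 or higher.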

How the data were processed

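Lung RNA of 6 bonded, 6 bond-disrupted and 5 virgin males was measured, with groups taken from the labels. The authors made directional libraries from total RNA, and the submitters' processing notes name Trim Galore 0.4.5, STAR 2.7.2, SAMtools 1.5, FastQC and featureCounts of Subread 1.5.3. The genome build is not given in the sources used here. They deposited FPKM per gene, 1 column per animal, which the study's methods compared with limma in iDEP. All 27786 symbols matched RefSeq genes of assembly ASM782708v3.

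Each deposited FPKM had been divided by the length of a gene up to 17 rows above. Depths and integer lengths were solved as those at which values become whole fragments or simple parts of them. Of 27787 lengths, 26335 were settled, of which 2510 had been moved by a simple factor to match neighbouring columns. Among 1503 small RNA genes 1467 lengths equalled the annotated length, although annotated lengths of small RNAs had also set the depths. Of 326699 values of few fragments, under 3000, 81.2% came out whole and 16.3% as a whole number and 0.5, within 0.005 of a fragment. Depths and fragments are known up to a factor of 2 if reads rather than pairs were counted. Own-length FPKM is the deposited value times the divisor over the gene's own length, and 25115 genes had all values.

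Groups were compared with limma 3.58.1 in R 4.3.3 (two-sided, with a variance trend) on log2(own-length FPKM + 0.1), with 3 groups in one fit and genes with a mean of at least 10 fragments. Benjamini-Hochberg adjustment ran over all genes tested, and calls needed an adjusted p under 0.1 and 2-fold. Correlations across animals used 100000 permutations (two-sided), which took no account of families. The test of 6 sibling pairs was exact over 720 pairings, with a smallest possible p of 0.00139. Every p measures the spread between animals. Recovery (numba 0.67.0) and statistics (scipy 1.17.1, pandas 2.3.3, numpy 2.4.6) were written in Python 3.11.15, and recovery and limma were tested on simulated data. The receptors and gene lists were chosen with earlier results of these data known. Named genes are the 5 receptors, the 2 most abundant of each list, the one with the lowest p in each comparison, and the 3 genes most like each receptor with a mean of at least 10 fragments. Those named as context (*Esr2*, *Gper1*, *Avpr1b*, *Avpr2*, *Ghr*, *Jak2*, *Oxt*, *Avp*) were added for their role, after their values were seen. Of these, *Avpr1b* and *Avpr2* also had the lowest p of their list in a comparison. The lists leave out 2 genes that are not reported here. Alternatives changed the pseudocount, filter, trend, scaling, samples, thresholds, block and length correction.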

Additional observations from a re-analysis of the deposited data

Results flagged for a closer look

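One of 15 combinations of a receptor and a group held an animal far from the others. *Oxtr* in B6 was at 0.127 FPKM, with 15.5 fragments, and the other 5 bonded animals were at 0 to 0.0288 FPKM. Its gap to the next animal was 0.774 of the range of the group, above the limit of 0.625 for 6 animals. Chance alone flags about 1 in 20 such groups.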

How the results depend on the processing

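No receptor passed the test in any comparison under any alternative, and of 581 alternative values 520 kept their direction and their side of the threshold. Many of these values could not change direction. Leaving out an animal of the group not compared, or changing the filter or the trend, leaves a difference as it was. The count of 520 is therefore no measure of how stable the values are. Lengths from the reference annotation were not run, since its lengths span introns. With the deposited values, 27, 84 and 22 genes were called in BD minus B, V minus B and V minus BD, where own lengths gave 0, 1 and 0. With them, *Avpr1a* turned to −0.35 in BD minus B and −0.73 in V minus B, *Prlr* to 0.49, −0.23 and −0.72 in the 3 comparisons, *Esr1* to −0.74 in V minus BD and the correlation of *Oxtr* with *Pgr* to 0.23, and 0 receptors resembled between siblings at an exact p under 0.05, against 2. These values carry the lengths of other genes. Genes called numbered 2 in BD minus B and 6 in V minus B without a fold threshold, 2 in V minus B with voom, 3 in V minus B with only the 2 groups compared, and 0 in V minus B with an additive model of the diagonal. The cause was not tested. *Oxtr*, on few fragments, turned to 0.26 (voom) and 0.0042 (quantile normalization) in V minus B and to −0.0056 (additive model) in V minus BD. With deviations from group means, 2 correlations with markers passed, against 0.

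The family number as a block gave 2 calls in V minus B and turned *Oxtr* to −0.033 and *Avpr1a* to 0.0076 in V minus BD. It changed no call of a receptor, and for *Esr1* in BD minus B it left the difference at −0.55 (SE 0.19, unadjusted p = 0.0125, adjusted p = 0.755 in limma). Deviations from the group means correlated above 0.1 in 5 of 6 pairs of a B and a BD sibling (0.05 to 0.45) and in 1 of 10 pairs with a virgin (−0.35 to 0.22). With voom on fragments, *Prlr* was −0.80 in BD minus B and 1.13 in V minus BD, against −0.12 and 0.24.

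Leaving out each animal in turn gave 0 to 1 calls in BD minus B (1 without B4 and 1 without BD2), 1 to 3 in V minus B (2 without B1 or B4, 3 without B6, V2 or V4) and 0 to 1 in V minus BD (1 without BD6). It turned *Oxtr* in BD minus B (−0.12 to 0.11), V minus B (−0.10 to 0.14) and V minus BD (−0.044 to 0.087), *Avpr1a* in V minus BD (−0.25 to 0.15) and *Esr1* in V minus B (−0.32 to 0.048). *Esr1* in BD minus B ran from −0.74 to −0.38. Of the 5 receptors, 0 to 2 resembled between siblings when each family was left out, with 1 without family 5 and 0 without family 6. Depth limits *Oxtr* and *Prlr* most, whose values rest on 0 to 15.5 and 1 to 11 fragments per animal, and the floors of 3 fragments cover counting error only.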

Other observations

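BD2, the animal with the highest *Avpr1a*, was also highest for most of a set of genes known to be induced through the glucocorticoid receptor, which were looked up after their values were seen and are given without a test. BD2 was also the highest of the 17 animals for 9.85% of all 16185 genes tested, and 6.61% of its genes lay at least 2-fold from their median over the animals. *Fkbp5*, a chaperone of steroid receptors, was at 33.2 FPKM in BD2 and at 3.81 to 11.3 FPKM in the other 16 animals. *Zbtb16*, a transcriptional repressor, was at 52.3 FPKM against 2.82 to 10.4, and *Per1*, a clock gene, at 30.9 against 3.75 to 14.9. *Tsc22d3*, a leucine zipper protein, was at 141 FPKM against 22.5 to 88.4, and *Ddit4*, an inhibitor of mTOR, at 229 against 13.4 to 76.3. *Pdk4*, a kinase of glucose metabolism, was at 18.5 FPKM against 3.38 to 6.41. *Sgk1*, a kinase, was second highest in BD2, at 84.0 FPKM against 42.7 to 86.3 (median 62.7), with V2 above it. *Avpr1a* itself was at 3.98 FPKM in BD2 and 0.907 to 2.50 in the others.

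*Avpr1b* and *Shbg* were among the most variable related genes. *Avpr1b* ran from 0 to 1.69 FPKM, with the highest value on 169 fragments, and *Shbg*, the carrier of sex steroids in blood, averaged 2.20 ± 1.53 FPKM in B, 2.80 ± 0.721 in BD and 1.93 ± 1.54 in V (SD, n = 6, 6 and 5).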
